A study of Mus musculus with 40 samples.

Results

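The genes of fatty acid and cholesterol synthesis were followed in the hearts of 40 male mice. The list held 36 names for 35 genes, since Sc4mol is an older name of Msmo1, and each gene was read from the probe that carried its symbol and had the highest mean log2 intensity. A probe was found for 32 of the 35 genes (none carried the symbol Acacb, Mvk or Fdft1). Of these, 26 were brighter than the array's median in 20 or more of the 40 hearts and were tested, among 12645 tested probes that stood for 8749 named genes. The 26 tested members were 8 of the 12 genes of the lipogenic arm, 11 of the 16 genes of the sterol arm and all 7 regulators.

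The animals were C57BL/6J offspring of dams fed a low-fat, high-carbohydrate (LF) or a high-fat (HF) diet since before mating, and were themselves weaned at 3 weeks of age onto either diet, so that each of the 4 combinations was represented by 10 animals killed at 9 weeks of age after a fast of 4 hours. Groups are named by the diet of the dam and then that of the offspring: LF_LF and LF_HF were born from LF-fed dams, HF_LF and HF_HF from HF-fed dams. All animals were labelled male and shared 1 genetic background, no transgene or drug was used, and the main fat of both diets was coconut oil. The comparisons ask whether the diet eaten after weaning (post-weaning effect) or the diet of the dam (maternal effect) altered the level of these transcripts in the adult heart. Males of 1 cage were divided between the diets at weaning, so animals with the same cage number were raised together and are not fully independent.

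Fatty acid synthesis starts from citrate, which leaves the mitochondrion and is split into acetyl-CoA in the cytosol. Acetyl-CoA carboxylase turns this into malonyl-CoA, fatty acid synthase builds palmitate from it, and elongases and desaturases modify the product. Cholesterol synthesis uses acetyl-CoA as well, through mevalonate, the isoprenoids and squalene to lanosterol and cholesterol. The SREBP transcription factors switch on both arms when sterols are scarce or insulin is high, and the Insig proteins hold them in the endoplasmic reticulum when sterols abound. Liver and fat are the main sites of lipogenesis. The working heart burns fatty acids and makes few, and there malonyl-CoA is best known as the inhibitor of fatty acid entry into mitochondria. Bits of fat that stay attached to a heart can therefore carry transcripts of the pathway, and the bulk RNA used here cannot tell a change in the number of such cells from a change in their RNA.

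The promoter windows of the members that passed the test are shown first, with that of Hmgcs1, HMG-CoA synthase, because it holds a sterol element. The RefSeq windows (GRCm38.p6, 250 bases before to 50 bases after an annotated start, all 4 genes on the plus strand) are written 5′ to 3′ with the motifs in capitals. The motifs searched on both strands were the sterol element TCACNCCAC, the E-box CACGTG and the CCAAT box, and no matches overlapped in these windows.
Acaca, chr11:84195188-84195487: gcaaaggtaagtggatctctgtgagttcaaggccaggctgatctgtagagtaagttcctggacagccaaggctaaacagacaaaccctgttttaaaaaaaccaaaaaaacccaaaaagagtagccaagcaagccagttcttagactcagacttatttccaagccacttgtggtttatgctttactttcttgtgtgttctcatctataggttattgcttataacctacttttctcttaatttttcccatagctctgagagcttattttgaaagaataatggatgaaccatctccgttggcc
Insig1, chr5:28071162-28071461: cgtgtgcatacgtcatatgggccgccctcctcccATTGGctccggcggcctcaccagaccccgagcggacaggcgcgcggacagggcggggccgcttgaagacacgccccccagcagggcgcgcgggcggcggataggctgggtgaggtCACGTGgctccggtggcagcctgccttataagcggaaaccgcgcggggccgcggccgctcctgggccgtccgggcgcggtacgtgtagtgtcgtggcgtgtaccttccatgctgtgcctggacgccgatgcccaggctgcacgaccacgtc
Pmvk, chr3:89454291-89454590: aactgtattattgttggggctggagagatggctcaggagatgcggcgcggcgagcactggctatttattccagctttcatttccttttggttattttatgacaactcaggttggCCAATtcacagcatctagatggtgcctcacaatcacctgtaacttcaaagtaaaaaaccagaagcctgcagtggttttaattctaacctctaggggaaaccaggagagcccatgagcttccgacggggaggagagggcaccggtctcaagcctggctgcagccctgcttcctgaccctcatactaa
Hmgcs1, chr13:119690101-119690400: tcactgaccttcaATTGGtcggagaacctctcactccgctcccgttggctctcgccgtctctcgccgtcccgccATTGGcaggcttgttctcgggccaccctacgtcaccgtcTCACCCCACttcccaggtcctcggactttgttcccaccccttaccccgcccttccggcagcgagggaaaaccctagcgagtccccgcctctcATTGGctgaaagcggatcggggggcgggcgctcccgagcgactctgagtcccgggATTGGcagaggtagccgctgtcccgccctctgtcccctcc

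The window of Acaca held none of the 3 motifs (1 window was listed for this gene). Other starts of Acaca were not searched, and whether this start is used in the heart is unknown. The absence therefore holds for this window only. That of Insig1 held 1 CCAAT box and 1 E-box, that of Pmvk at its first annotated start 1 CCAAT box, and that of Hmgcs1 1 sterol element and 4 CCAAT boxes. The table listed 39 windows for 29 of the 35 members. A CCAAT box was present in 25 of these 29 genes (86.2%), against 41.1% of all 27025 genes in the table, and the share per window was 26 of 39 against 37.4% of 32851. A sterol element was present in 2 members, Hmgcs1 and Mlxipl (1.44% of all genes, 1.24% of windows), and an E-box in 7 (8.09% of all genes, 7.15% of windows). These are matches of letters in a window and were not tested.

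Intensities of the 40 arrays had been quantile-normalised by the authors, so that every array had the same distribution, and the number of arrays limits the precision. Cardiomyocyte markers were bright in all hearts, with a summed intensity over 11 genes of 147510.1 to 171171.1. Several hearts also carried transcripts of other tissues: 13 of the 40 (3 LF_LF, 3 LF_HF, 4 HF_LF and 3 HF_HF) exceeded 1.5 in a score of adipocyte, liver, pancreas or skeletal muscle markers, the score being the mean log2 intensity over the markers, each relative to its median over the hearts. The remaining hearts are called free of other tissue, although some held less of it. They include animals 100, 134 and 227, which were rich in the adipocyte transcript Adipoq described below. The arrays further fell into 2 sets of 25 and 15 that were inferred from dim probes, because the labels name no chip (set 1 held 5 LF_LF, 7 LF_HF, 7 HF_LF and 6 HF_HF hearts).

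Adipoq, adiponectin, an adipocyte hormone, was used to look for adipose tissue in single hearts. Its intensity ran from 73.9 over a median of 157.1 to 2551.5 in LF_LF, from 66.8 over 108.6 to 242.9 in LF_HF, from 73.6 over 153.2 to 3156.1 in HF_LF, and from 83.3 over 163.8 to 3474.8 in HF_HF. It exceeded 400 in 8 hearts, of which 4 were LF_LF (animals 133, 134, 101 and 100, at 2551.5, 1482.6, 782.3 and 708.2), 3 were HF_LF (animals 177, 128 and 227, at 3156.1, 2710.6 and 485.7) and 1 was HF_HF (animal 183, at 3474.8). Thus 7 of 20 LF-fed and 1 of 20 HF-fed offspring lay above this level, and the highest heart below it stood at 330.3. The limit of 400 was chosen after the values were seen.

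Several other adipocyte markers were also high in single hearts. Of the list's 17 genes 15 had a probe and 7 were tested, and their summed intensity ran from 1661.6 to 16570.5 in LF_LF, 1844.4 to 2394.2 in LF_HF, 1700.2 to 13286.3 in HF_LF and 1797.6 to 11638.3 in HF_HF. Cidec, a lipid droplet protein, reached 1003.8 (LF_LF), 147.7 (LF_HF), 1115.3 (HF_LF) and 1091.2 (HF_HF). Ucp1, the uncoupling protein of brown fat, reached 3544.7, 174.8, 1213.5 and 924.3 in the same order. Retn, resistin, stayed between 53.3 and 72.7 in every heart, and Lipe, hormone-sensitive lipase, between 81.1 and 197.1. The averaged post-weaning log2 fold change was -0.81 for Adipoq itself (SE 0.488, limma adjusted p = 0.317), and 0 of the 7 tested markers passed in that comparison, or had an unadjusted p under 0.05.

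**Figure D1:**
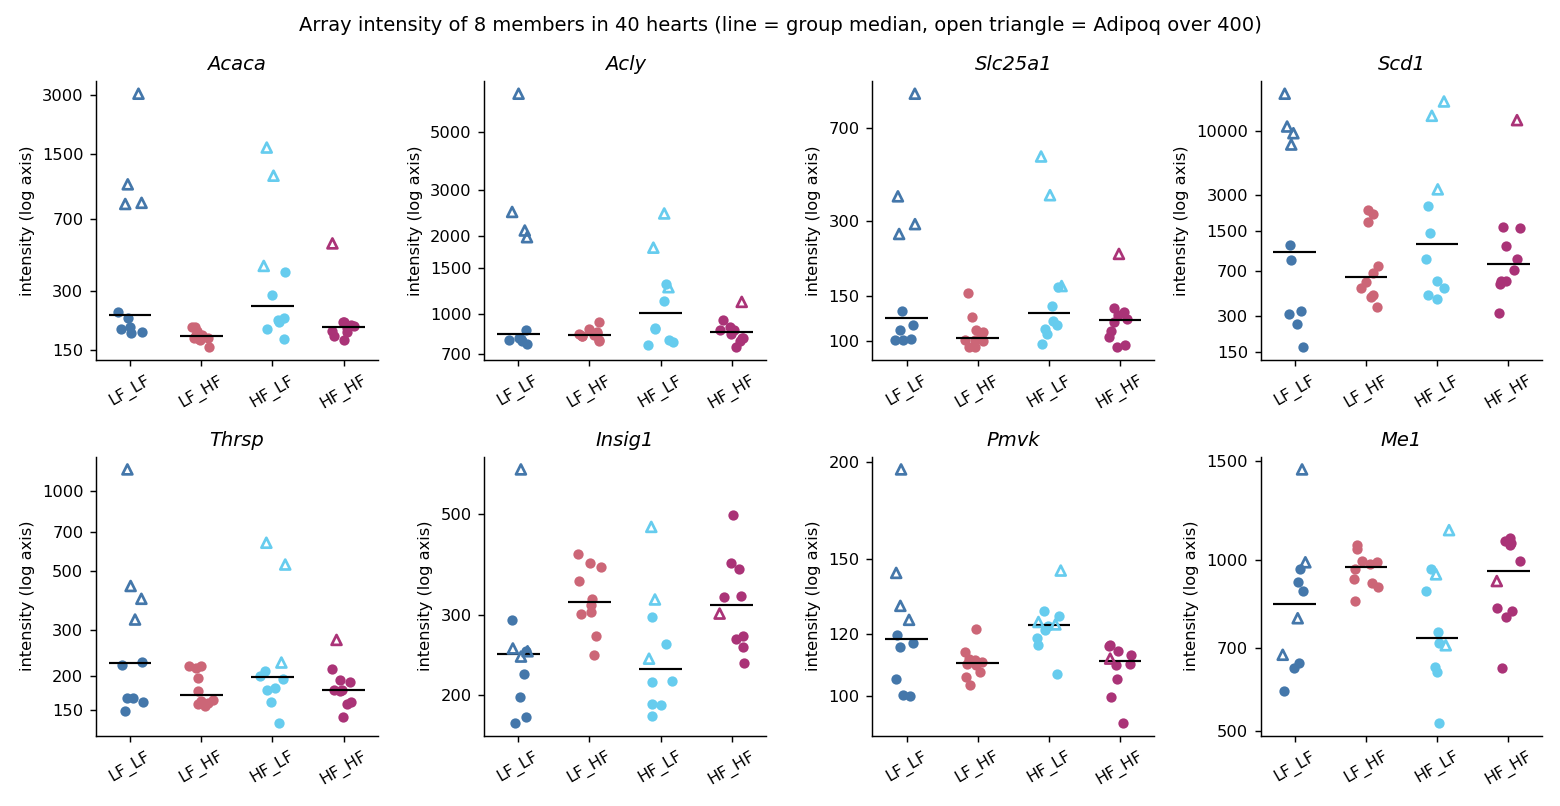
Array intensity (log axis) of 8 members in each of the 40 hearts, by diet group, with the diet of the dam first. Each symbol is 1 heart, lines are group medians and open triangles are the 8 hearts with an Adipoq intensity over 400, in which Acaca ran from 403.3 to 3056.1 against 154.9 to 374.5 in the other 32.

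Acaca, acetyl-CoA carboxylase 1, which makes the malonyl-CoA for fatty acid synthesis, was lower in HF-fed offspring. Its intensity ran from 183.6 over a median of 225.9 to 3056.1 in LF_LF, from 154.9 over 176.2 to 196.7 in LF_HF, from 169.9 over 253.1 to 1622.3 in HF_LF and from 169.3 over 196.8 to 525.6 in HF_HF. The groups overlapped at their lower ends, and 6 of 20 LF-fed hearts lay above all 20 HF-fed hearts. Averaged over the diets of the dam, Acaca fell by 0.97 (log2) with the HF diet after weaning (SE 0.284, 95% confidence interval -1.54 to -0.39, limma adjusted p = 0.0292), and 19 of 20 HF-fed hearts lay below the median of the LF-fed hearts.

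The fall was smaller without the hearts rich in Adipoq. Acaca stood at 3056.1, 1622.3, 1165.2, 1052.9, 846.9, 835.4, 525.6 and 403.3 in the 8 hearts over 400, and all 8 exceeded each of the other 32 hearts (154.9 to 374.5). Without these 8 hearts the log2 fold change was -0.22 (SE 0.0709, adjusted p = 0.0794), with medians of 207.8 in 13 LF-fed and 185.6 in 19 HF-fed hearts. With log2 Adipoq as a covariate it was -0.53 (adjusted p = 0.00369), and with the adipocyte score -0.60 (adjusted p = 0.000185). Leaving out the 13 hearts with other tissue gave -0.65 (adjusted p = 0.118). That setting still held the Adipoq-rich hearts of animals 100, 134 and 227 (Acaca 846.9, 1052.9 and 403.3). The sign was thus kept in each of these settings, and the test was not passed when either kind of heart was left out. The part of adipose tissue in the difference was not tested beyond these values.

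The call also depended on cages and arrays. Acaca passed in each of the 40 fits that left out 1 animal, with log2 fold changes from -1.04 to -0.81. It did not pass without cage 4 (adjusted p = 0.0927), 6 (0.0634), 9 (0.061), 20 (0.0912) or 23 (0.097), of which cages 4, 6, 20 and 23 held Adipoq-rich hearts. Cages 12 and 21 held Adipoq-rich hearts as well (animals 227 and 183), and Acaca passed without either cage. Within array set 1, which held 7 of the 8 Adipoq-rich hearts, the log2 fold change was -1.38 (adjusted p = 0.0373), within set 2 it was -0.41 (adjusted p = 0.642), and with the set as a term it was -0.996 (adjusted p = 0.0179).

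Pmvk, phosphomevalonate kinase of the mevalonate arm, was also lower in HF-fed offspring, by a small amount. Its intensity ran from 99.9 over 118.3 to 195.6 in LF_LF, from 103.2 over 110.1 to 122.0 in LF_HF, from 106.5 over 123.3 to 144.9 in HF_LF and from 92.2 over 110.7 to 116.1 in HF_HF. The groups overlapped, although 10 of 20 LF-fed hearts lay above all HF-fed hearts. The averaged log2 fold change of -0.17 passed the test (SE 0.0517, 95% confidence interval -0.27 to -0.06, limma adjusted p = 0.0364), and 20 of 20 HF-fed hearts lay below the LF-fed median. It was -0.07 without the Adipoq-rich hearts (adjusted p = 0.283), -0.12 with log2 Adipoq as a covariate (adjusted p = 0.0934) and -0.10 in hearts free of other tissue (adjusted p = 0.296). The last setting kept the Adipoq-rich hearts of animals 100, 134 and 227 (Pmvk 125.2, 143.9 and 123.5). In fits that left out 1 animal the call was lost without animals 52, 101, 122, 134, 177, 181, 207 or 208 (adjusted p up to 0.062), and it was kept in 1 of 12 fits that left out 1 cage, that without cage 8.

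Insig1, which anchors the SREBP complex in the endoplasmic reticulum and is itself a target of SREBP, was higher in HF-fed offspring. Its intensity ran from 173.5 over a median of 246.2 to 627.9 in LF_LF, from 245.1 over 320.6 to 408.0 in LF_HF, from 179.7 over 227.7 to 469.1 in HF_LF and from 235.2 over 315.7 to 497.5 in HF_HF. Of the 20 LF-fed hearts, 9 lay below all 20 HF-fed hearts and 1, animal 133 with much Adipoq, lay above them all. The averaged rise was 1.29-fold (log2 0.37, SE 0.119, 95% confidence interval 0.13 to 0.61, limma adjusted p = 0.0473), and 19 of 20 HF-fed hearts lay above the LF-fed median.

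In contrast to Acaca, this difference was larger without the Adipoq-rich hearts. The log2 fold change was 0.58 in the other 32 hearts (SE 0.0983, adjusted p = 0.000486), 0.49 with log2 Adipoq as a covariate (adjusted p = 0.00182), 0.57 in hearts free of other tissue (adjusted p = 0.00126) and 0.61 without both kinds of heart (adjusted p = 0.00351). In the 32 hearts the medians were 213.9 in 13 LF-fed hearts (173.5 to 296.6) and 325.1 in 19 HF-fed hearts (235.2 to 497.5). With all 40 hearts the call was at the threshold: it was lost in 28 of 40 fits that left out 1 animal (adjusted p between 0.00353 and 0.0782 over the 40) and in 10 of 12 that left out 1 cage (up to 0.131), and without animal 133 the log2 fold change was 0.45 (adjusted p = 0.00353). The log2 fold change was 0.20 within array set 1 (adjusted p = 0.495) and 0.66 within set 2 (adjusted p = 0.178). The 4 probes of Insig1 did not give the same size: besides the 0.37 of the brightest, 2 other tested probes had log2 differences of 0.13 each and the fourth, which failed the filter, 0.01, and their mean was 0.16 (adjusted p = 0.107).

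**Figure D2:**
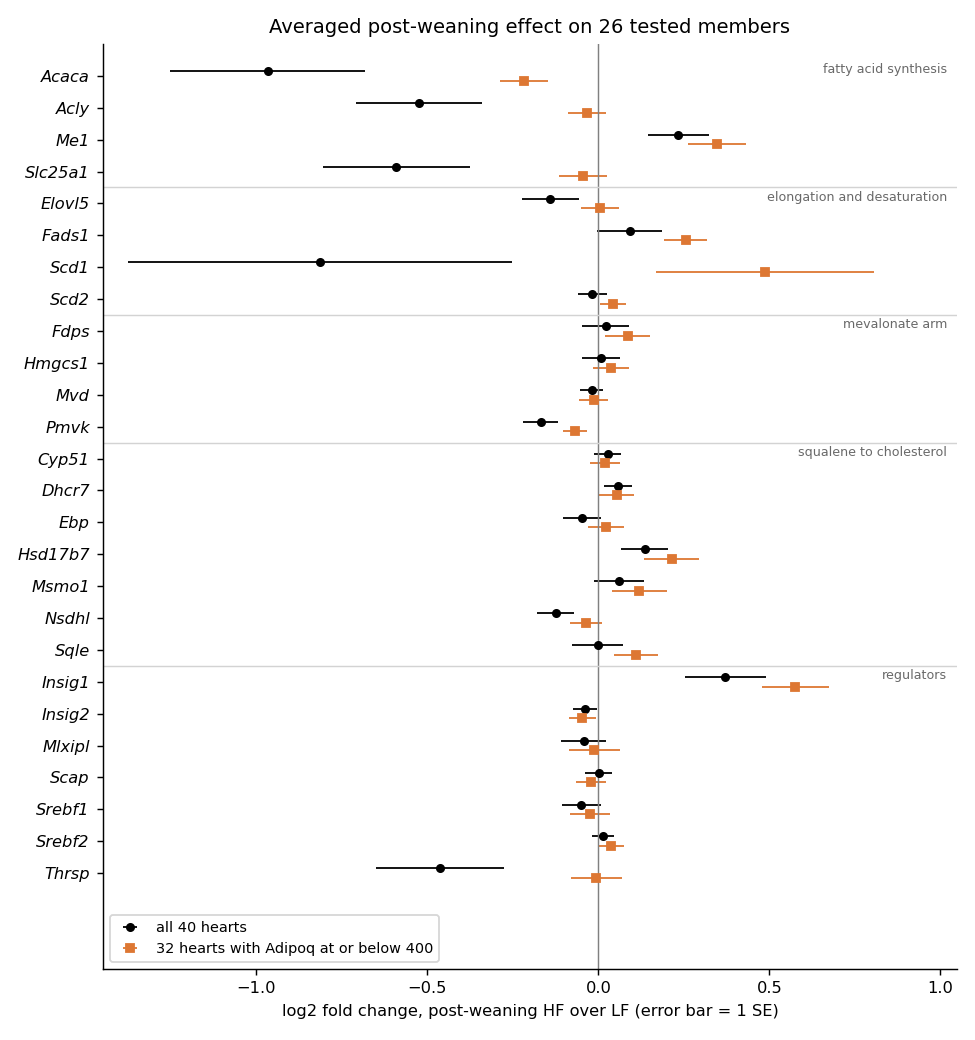
Averaged post-weaning log2 fold change (HF over LF, horizontal axis) of the 26 tested members by pathway step, in all 40 hearts (circles) and in the 32 hearts with Adipoq at or below 400 (squares), with bars of 1 SE. Acaca moved from -0.97 to -0.22 and Insig1 from 0.37 to 0.58 when the 8 hearts were left out.

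These were the members that passed in the averaged post-weaning effect: 2 were lower, against 3.96% of all tested probes, and 1 was higher, against 3.53% (7.49% of all probes passed in either direction). At an unadjusted p under 0.05 there were 8 of 26 members, against 23.8% of all probes. The share of members that changed was therefore close to the background. The median log2 fold change was -0.33 over the 8 lipogenic members (from -0.97 to 0.23), 0.01 over the 11 sterol members (from -0.17 to 0.14) and -0.04 over the 7 regulators, and it was 0.00036 over all tested probes.

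Slc25a1 and Acly, which supply cytosolic acetyl-CoA, had values like those of Acaca and did not pass. Slc25a1, the carrier that exports citrate from mitochondria, ran from 100.7 over a median of 123.3 to 956.3 in LF_LF, from 94.3 over 103.0 to 154.3 in LF_HF, from 97.3 over 128.6 to 538.8 in HF_LF and from 94.3 over 120.7 to 221.3 in HF_HF (averaged log2 fold change -0.59, SE 0.216, adjusted p = 0.0817). Acly, ATP citrate lyase, ran from 767.2 over 839.5 to 6989.7 in LF_LF, from 788.4 over 831.9 to 930.3 in LF_HF, from 759.7 over 1005.2 to 2429.6 in HF_LF and from 746.0 over 853.2 to 1113.5 in HF_HF (-0.52, SE 0.184, adjusted p = 0.0704). The groups overlapped at their lower ends for both genes, the highest values were those of LF-fed hearts, and without the 8 Adipoq-rich hearts their log2 fold changes were -0.04 and -0.03 (adjusted p = 0.747 and 0.759). Slc25a1 passed with the adipocyte score as a covariate (-0.32, adjusted p = 0.0206) and Acly with the atrial score (-0.46, adjusted p = 0.043). Both passed without cage 8 (Slc25a1 -0.75, adjusted p = 0.0283, and Acly -0.69, adjusted p = 0.0156), and Acly without animal 15 (adjusted p = 0.0482) or 211 (adjusted p = 0.0498). The second tested probe of Slc25a1 gave -0.18.

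Me1, cytosolic malic enzyme, which provides NADPH for synthesis, had the opposite sign. It ran from 588.2 over 837.9 to 1447.0 in LF_LF, from 847.3 over 975.6 to 1064.4 in LF_HF, from 517.2 over 731.5 to 1131.0 in HF_LF and from 645.5 over 958.6 to 1096.6 in HF_HF. Its averaged log2 fold change was 0.23 (SE 0.0887, adjusted p = 0.0928), and 19 of 20 HF-fed hearts lay above the LF-fed median. It passed without the Adipoq-rich hearts (0.35, SE 0.0847, adjusted p = 0.016), with log2 Adipoq as a covariate (0.30, adjusted p = 0.0179), in hearts free of other tissue (0.34, adjusted p = 0.0414) and without animal 133 (0.28, adjusted p = 0.0246) or 124 (0.26, adjusted p = 0.0473) alone. Without both kinds of heart it was 0.37 (adjusted p = 0.0613). The second probe of Me1 gave 0.28 in all hearts.

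Scd1, stearoyl-CoA desaturase, varied widely between hearts. Its intensity ran from 165.0 over a median of 1005.5 to 20428.5 in LF_LF, from 356.5 over 624.8 to 2222.4 in LF_HF, from 412.1 over 1164.0 to 17625.8 in HF_LF and from 318.6 over 797.6 to 12362.7 in HF_HF. Its averaged difference of -0.81 (log2) had a large error (SE 0.561, adjusted p = 0.394), and its sign was reversed without the Adipoq-rich hearts (0.49, SE 0.318, adjusted p = 0.39) and within array set 2 (0.58, adjusted p = 0.778). In the 8 Adipoq-rich hearts Scd1 ran from 3318.2 to 20428.5, above the 2411.9 that was the highest of the other 32.

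The remaining desaturases and elongases showed small differences. Fads1, the delta-5 desaturase of long polyunsaturated fatty acids, had medians of 679.8 (LF_LF), 747.2 (LF_HF), 730.9 (HF_LF) and 839.0 (HF_HF), within ranges of 587.2 to 1950.1, 708.2 to 1341.4, 654.4 to 959.0 and 694.3 to 982.2. Its averaged log2 fold change was 0.09 (adjusted p = 0.597), and it passed without the Adipoq-rich hearts (0.26, SE 0.0632, adjusted p = 0.0173) and without both kinds of heart (0.22, adjusted p = 0.0159). In the 32 hearts 686.4 was the LF-fed and 791.6 the HF-fed median. Elovl5, an elongase of polyunsaturated fatty acids, had -0.14 (SE 0.0833, adjusted p = 0.308), and Scd2, a second stearoyl-CoA desaturase, had -0.02 (SE 0.0415, adjusted p = 0.846).

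Fasn, Elovl6 and Fads2 lay below the filter and were tested only in the setting without it, in which Elovl6 had an averaged log2 fold change of -0.74 (SE 0.248, limma adjusted p = 0.109), Fasn -0.15 (adjusted p = 0.471) and Fads2 0.03 (adjusted p = 0.938). Fasn, fatty acid synthase, ran from 59.5 to 191.2 and Elovl6, the elongase of palmitate, from 65.3 to 1082.7 over the 40 hearts, and the highest value of each belonged to animal 133 (LF_LF). Elovl6 ran from 133.7 to 1083 in the 8 Adipoq-rich hearts and reached 114.9 in the others. Fads2, the delta-6 desaturase, ran from 60.4 to 154.0. Among the sterol genes, Idi1, Lss and Tm7sf2 lay below the filter, with ranges of 62.5 to 101.3, 59.8 to 109.6 and 60.3 to 95.1.

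The sterol arm apart from Pmvk differed little between the diets. Hsd17b7, a sterol ketoreductase, had 0.14 as its averaged post-weaning log2 fold change (SE 0.0689, adjusted p = 0.222), and Nsdhl, a sterol dehydrogenase of the demethylation steps, -0.12 (SE 0.0546, adjusted p = 0.152). Nsdhl was the only other sterol gene with an unadjusted p under 0.05 (0.028). Hmgcs1, whose promoter window is printed above with its sterol element, had medians of 926.3, 907.3, 896.6 and 911.9 in LF_LF, LF_HF, HF_LF and HF_HF and a log2 fold change of 0.01 (95% confidence interval -0.11 to 0.12, adjusted p = 0.961). Fdps, farnesyl diphosphate synthase, had 0.02 (-0.12 to 0.16), Cyp51, lanosterol demethylase, 0.03 (-0.05 to 0.11), Msmo1, the methylsterol oxidase, 0.06 (-0.09 to 0.21), Sqle, squalene epoxidase, -0.0021 (-0.15 to 0.15), Mvd, mevalonate decarboxylase, -0.02 (-0.09 to 0.05), Ebp, sterol isomerase, -0.05 (-0.16 to 0.07) and Dhcr7, the last reductase, 0.06 (-0.03 to 0.14), all with adjusted p over 0.4.

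Among the regulators besides Insig1, Thrsp, a protein linked to lipogenesis that responds to thyroid hormone and carbohydrate, had its highest values in the same hearts as Acaca. It ran from 148.6 over a median of 224.2 to 1203.4 in LF_LF, from 154.5 over 170.0 to 219.8 in LF_HF, from 133.6 over 198.2 to 637.3 in HF_LF and from 140.6 over 177.5 to 274.5 in HF_HF. Its averaged log2 fold change was -0.46 (SE 0.186, adjusted p = 0.115) and -0.01 without the Adipoq-rich hearts (adjusted p = 0.97). The SREBP genes Srebf1 and Srebf2 had -0.05 (95% confidence interval -0.17 to 0.06) and 0.01 (-0.05 to 0.08), the escort Scap 0.00081 (-0.08 to 0.08), Insig2 -0.04 (-0.11 to 0.03) and Mlxipl, the carbohydrate-responsive ChREBP, -0.04 (-0.18 to 0.09). Both SREBP genes were rather dim, with medians of 97.9 and 100.5 in LF-fed and 92.4 and 100.6 in HF-fed hearts. Their signal over background is unknown, so a small change could be missed.

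In offspring of LF-fed dams alone 0 of 26 members passed in limma for the post-weaning diet (2.72% of all probes did), and 7 had an unadjusted p under 0.05 (21.8% of all probes). The smallest p belonged to Acaca (log2 fold change -1.22, SE 0.417, adjusted p = 0.102), with 10 of 10 LF_HF hearts below the median of LF_LF, followed by Slc25a1 (-0.78, SE 0.322, adjusted p = 0.167) and Insig1 (0.38, SE 0.167, adjusted p = 0.187). Acaca passed with the adipocyte score as a covariate, at a smaller value (-0.44, adjusted p = 0.0423), and with the atrial score (-1.18, adjusted p = 0.00947). Without animal 133 Insig1 passed (0.53, adjusted p = 0.0109), as it did without the Adipoq-rich hearts (0.60, adjusted p = 0.025), with log2 Adipoq (0.63, adjusted p = 0.0261) and with the adipocyte score (0.64, adjusted p = 0.00642).

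In offspring of HF-fed dams 0 of 26 passed (0.862% of all probes did), and 3 had an unadjusted p under 0.05 (8.22% of all probes). These were Pmvk (-0.18, SE 0.0504, adjusted p = 0.109, 10 of 10 HF_HF hearts below the median of HF_LF), Insig1 (0.36, SE 0.156, adjusted p = 0.502, 10 of 10 above) and Acly (-0.37, SE 0.169, adjusted p = 0.552, 9 of 10 below). Pmvk passed without animal 126 (-0.21, adjusted p = 0.0448). Acaca had -0.71 (SE 0.347, adjusted p = 0.616) and passed with log2 Adipoq (-0.55, adjusted p = 0.0287) or the adipocyte score (-0.61, adjusted p = 0.0155) as a covariate.

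Within the 5 cages that gave offspring to both diets, with the cage as a term, 0 of 26 passed (1.72% of all probes did), and 7 had an unadjusted p under 0.05 (14.4% of all probes). Acaca had -1.13 (SE 0.326, adjusted p = 0.0912), Pmvk -0.14 (SE 0.0449, adjusted p = 0.141) and Slc25a1 -0.74 (SE 0.25, adjusted p = 0.154). Insig1 had 0.23 (SE 0.143, unadjusted limma p = 0.122, adjusted p = 0.482), a smaller value than the averaged one.

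The diet of the dam was not followed by a change that passed in any member. In the averaged maternal effect 0 of 26 members passed (0.388% of all probes did), and 1 had an unadjusted p under 0.05, against 9.89% of all probes. That member was Fdps, with medians of 406.6 (LF_LF), 394.7 (LF_HF), 359.1 (HF_LF) and 375.2 (HF_HF) and an averaged change of -0.16 (log2, SE 0.0691, adjusted p = 0.396, 15 of 20 hearts below the median of the other dams), followed by Hsd17b7 (-0.12, SE 0.0689, adjusted p = 0.581) and Cyp51 (-0.07, SE 0.0392, adjusted p = 0.585). The 11 sterol genes had a median of -0.07, with 10 lower and 1 higher, against -0.00085 over all probes, and their median was -0.0027 once the 13 hearts with other tissue were left out. The 8 lipogenic genes had a median of -0.0040, with 4 of either sign.

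Among LF-fed offspring 0 of 26 members passed for the diet of the dam (0.0395% of all probes did) and 0 had an unadjusted p under 0.05 (4.02% of all probes). The smallest p belonged to Fdps (-0.19, SE 0.105), Mlxipl (-0.15, SE 0.0922) and Hmgcs1 (-0.12, SE 0.0817), each with an adjusted p of 0.996. Among HF-fed offspring 0 of 26 passed (0% of all probes did) and 1 had an unadjusted p under 0.05 (11.3% of all probes). For Scd2 the log2 fold change was 0.15 (SE 0.0493, adjusted p = 0.283), with 85.2 as the median of LF_HF and 95.8 as that of HF_HF, followed by Acaca (0.26, SE 0.139, adjusted p = 0.497) and Cyp51 (-0.09, SE 0.0541, adjusted p = 0.559).

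The interaction, the post-weaning effect in offspring of HF-fed dams minus that in offspring of LF-fed dams, passed for 0 of 26 members (0% of all probes), and 2 had an unadjusted p under 0.05 (3.41% of all probes). These were Scd2 (0.22, SE 0.0831, adjusted p = 0.943) and Mlxipl (0.29, SE 0.133, adjusted p = 0.943), and the third was Srebf1 (0.20, SE 0.114, adjusted p = 0.943). For the members that passed in the averaged effect the interaction was 0.51 for Acaca (95% confidence interval -0.64 to 1.66), -0.03 for Pmvk (-0.24 to 0.18) and -0.02 for Insig1 (-0.50 to 0.46). A difference between the dams was thus not detectable, but the limits were wide for each of these members. Each interval included values as large in size as the averaged effect of that gene (-0.97, -0.17 and 0.37).

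**Figure D3:**
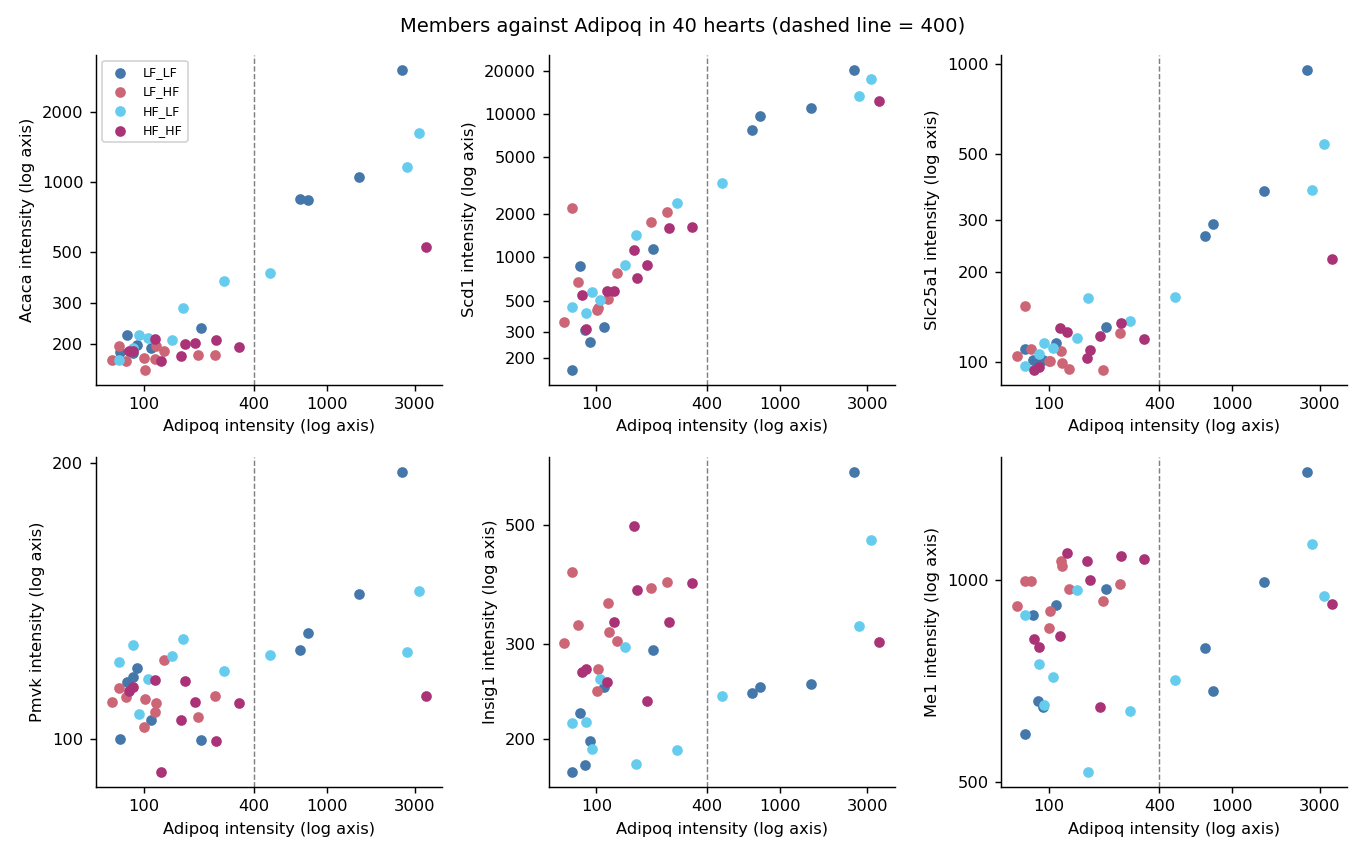
Intensity of 6 members against that of Adipoq in each of the 40 hearts (both axes log), with the diet groups in colour and a dashed line at an Adipoq intensity of 400. Acaca, Scd1 and Slc25a1 were high in all 8 hearts to the right of the line, whereas Insig1 and Me1 had values within the range of the other hearts in all but 1 and 2 of them.

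Other tissue in single hearts went with different members. In the 8 Adipoq-rich hearts the median of Scd1 was 19.9 times that of the other 32 hearts, and the ratio was 4.92 for Acaca, 3.46 for Elovl6, 3.00 for Slc25a1, 2.46 for Acly and 2.34 for Thrsp. Over the 14 sterol genes with a probe this ratio ran from 0.952 to 1.15. These are descriptions, since the hearts were chosen for their Adipoq level.

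Each tested member was then correlated over the 40 hearts with the adipocyte score and with the liver score after removal of the mean of its diet group (52 relations, two-sided permutation tests with Benjamini-Hochberg adjustment). With the adipocyte score all 8 lipogenic members had a positive Pearson's r with an adjusted p under 0.05, from 0.415 to 0.934, against 4 of 11 sterol members and 3 of 7 regulators. By rank 6, 3 and 2 members passed. These relations were computed for the members only, so the share over all tested probes is not known. Acaca had r = 0.934 and Spearman's rho = 0.916 (adjusted permutation p = 8.67e-05 for both, from the smallest p that the resampling can give, 1e-05), Slc25a1 0.919 and 0.875, Scd1 0.905 and 0.917, Thrsp 0.863 and 0.798, and Acly 0.853 and 0.871. Without the 2 hearts whose score, with the group mean removed, lay farthest from the median, animals 133 and 183, r was 0.94 for Acaca, 0.929 for Slc25a1, 0.896 for Scd1, 0.857 for Thrsp and 0.88 for Acly. Within array sets 1 and 2 it was 0.941 and 0.908 for Acaca.

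No member belonged to either marker list. The relation was also computed in the 32 hearts with Adipoq at or below 400. Scd1 kept r = 0.801 and rho = 0.727 (adjusted permutation p = 0.00052 and 0.00104), Acaca had 0.542 and 0.479 (0.00787 and 0.0498), Acly 0.54 and 0.555 (0.00825 and 0.0185) and Slc25a1 0.475 and 0.415 (0.0297 and 0.106). Thrsp had 0.0175 and 0.00367 (0.984 for both), so its relation rested on the 8 hearts. Insig1 had r = 0.635 and rho = 0.512 in all hearts (adjusted permutation p = 0.00028 and 0.00331) and 0.322 and 0.341 in the 32 (0.17 and 0.24), and Pmvk had 0.63 and 0.474 (0.000236 and 0.00715) against -0.179 and -0.232 (0.519 and 0.438).

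**Figure D4:**
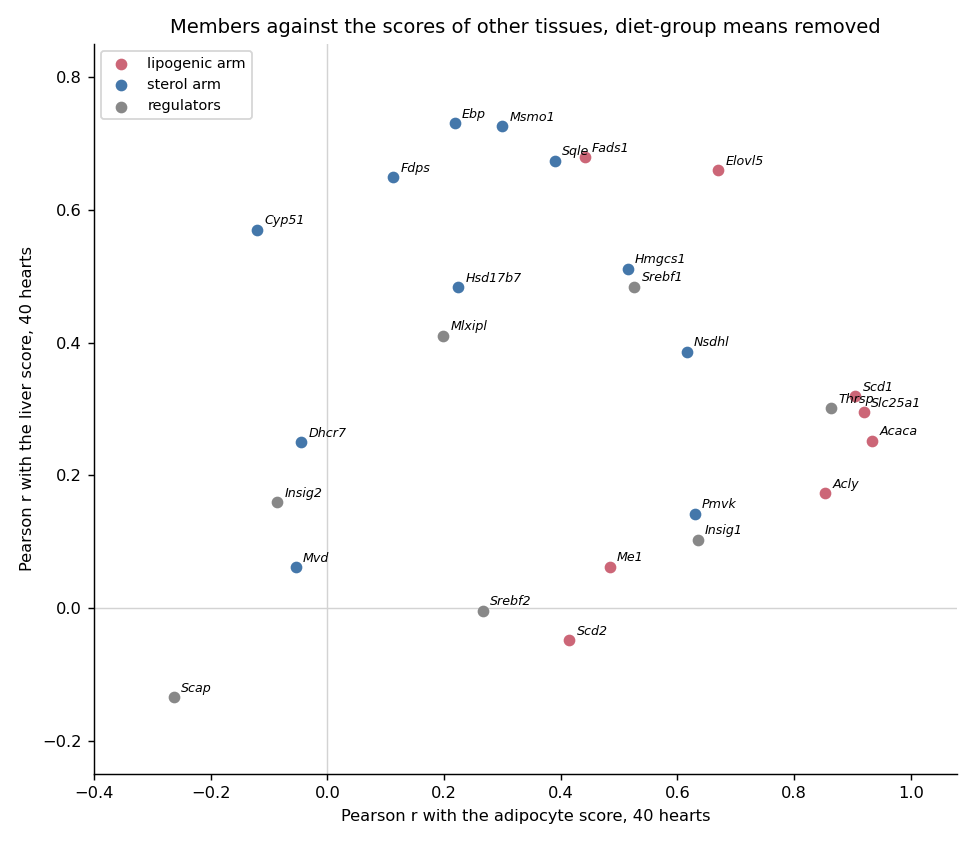
Pearson's r of each tested member with the adipocyte score (horizontal axis) and with the liver score (vertical axis) over 40 hearts, diet-group means removed, coloured by arm. Acaca, Slc25a1, Scd1, Acly and Thrsp lie at the right with r from 0.853 to 0.934, and Ebp and Msmo1 at the top with r of 0.731 and 0.726.

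By count, the liver score was related most often to sterol genes. A positive r with an adjusted p under 0.05 was found for 8 of 11 sterol members, 2 of 8 lipogenic members and 2 of 7 regulators (5, 1 and 1 by rank). For this score, too, the share over all tested probes is not known. Ebp had r = 0.731 and rho = 0.515 (adjusted permutation p = 0.000149 and 0.00331), Msmo1 0.726 and 0.544 (8.67e-05 and 0.00231), Fads1 0.679 and 0.323 (0.000236 and 0.0902), Sqle 0.674 and 0.522 (0.00026 and 0.00331), and Fdps 0.649 and 0.364 (0.000409 and 0.0588). These values leaned on animals 101 (LF_LF) and 201 (LF_HF), whose liver scores were 3.8 and 3.47: without both, r was 0.439, 0.515, 0.311, 0.33 and 0.269. In animal 201, 11 of 14 sterol genes with a probe exceeded all 9 other hearts of its group. Msmo1, at 376.3, and Fdps, at 653.7, were among them. The same held in animal 201 for 8 of 11 lipogenic genes, with Scd1 and Acaca among them, and for 4 of 7 regulators. In animal 101 it held for 6 of 14 sterol genes, 3 of 11 lipogenic genes and 2 of 7 regulators. Animal 101 was LF-fed and also rich in Adipoq (782.3), and animal 201 was HF-fed. With the liver score as a covariate Acaca had -0.98 (adjusted p = 0.0214), Pmvk -0.17 (adjusted p = 0.0342) and Insig1 0.37 (adjusted p = 0.0482). The part of liver tissue in the diet differences was not tested.

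Atrial markers also varied between the groups, with a median summed intensity over 12 genes of 8167.3 (LF_LF), 20295.2 (LF_HF), 71203.6 (HF_LF) and 45219.2 (HF_HF). With the atrial score as a covariate, Acaca had -0.88 (adjusted p = 0.0147), Pmvk -0.16 (adjusted p = 0.0302) and Insig1 0.39 (adjusted p = 0.0265).

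Of 52 other genes of the pathway and its control, 39 had a probe and 32 were tested, and 3 rose and 1 fell in the averaged post-weaning effect, against 7.49% of all probes in either direction. Cpt1b, the muscle carnitine palmitoyltransferase that malonyl-CoA inhibits, ran from 3326.5 over a median of 4317.8 to 4813.6 in LF_LF, from 4660.8 over 5186.5 to 5658.0 in LF_HF, from 3379.3 over 4114.9 to 4602.8 in HF_LF and from 4364.7 over 4693.4 to 5268.2 in HF_HF (log2 fold change 0.27, SE 0.0429, adjusted p = 4.4e-05). The ranges of LF-fed and HF-fed offspring overlapped for both kinds of dam. Mlycd, malonyl-CoA decarboxylase, had medians of 1470.3, 1628.3, 1418.1 and 1712.3 in LF_LF, LF_HF, HF_LF and HF_HF (0.24, SE 0.0587, adjusted p = 0.00786). Usf1, an E-box binding factor of lipogenic promoters, rose by 0.10 (SE 0.0297, adjusted p = 0.0336), and Cyp27a1, a sterol hydroxylase of the mitochondrion, fell by 0.23 (SE 0.0709, adjusted p = 0.0362).

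In offspring of LF-fed dams Cpt1b (0.31, SE 0.0639, adjusted p = 0.0129) passed, and Lpin1, a phosphatidate phosphatase and coactivator, fell by 0.21 (SE 0.0537, adjusted p = 0.037). Within cages Cpt1b passed (0.26, adjusted p = 0.0169). In offspring of HF-fed dams 0 of the 32 passed in limma (0.862% of all probes did, and 5 of the 32 had an unadjusted p under 0.05), with the smallest p for Cpt1b (0.22, adjusted p = 0.061) and Mlycd (0.26, adjusted p = 0.283). For the averaged maternal effect the smallest p belonged to Prkab2 (-0.12, adjusted p = 0.13), a subunit of the AMP-activated kinase that phosphorylates acetyl-CoA carboxylase, and to Mcat (-0.11, adjusted p = 0.312), a mitochondrial malonyltransferase.

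Among the 32 hearts left without the Adipoq-rich ones 3 of the 26 members passed in the averaged post-weaning effect, against 3.65% of all probes, and all were higher in HF-fed offspring: Insig1, Me1 and Fads1. When the 13 hearts with other tissue were left out, 2 passed, against 1.82% of all probes, and these were Insig1 and Me1. The lipogenic median was 0.02 in the first of these settings and -0.19 in the second, and the sterol median 0.04 and -0.00055. The second setting kept the Adipoq-rich hearts of animals 100, 134 and 227.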

How the data were processed

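Heart RNA of 40 animals had been hybridised to Illumina MouseRef-8 v2.0 beadchips, 1 array per animal. The deposited values were fluorescence intensity on a linear scale, which the authors obtained with BeadStudio and quantile-normalised across hearts, without background subtraction. Once sorted, the columns were equal to within 1 intensity unit. No detection p-values were used, so signal over background of dim probes is unknown.

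Intensities were converted to log2 and probes brighter than the array's median in 20 or more hearts were kept (12645 of 25697). Symbols came from the platform annotation, updated through the gene table of GRCm38.p6: 23978 probes had 1 symbol, 0 several and 1719 none. Comparisons used limma 3.58.1 (R 4.3.3), a trend in the variance and Benjamini-Hochberg adjustment over all tested probes within each comparison (false discovery rate 5%). Pairwise comparisons were fitted on their own 20 arrays, averaged effects and the interaction on all 40. Fold changes are HF over LF. Correlations used 100000 resamples in Python 3.11.15 with NumPy 2.4.6, SciPy 1.17.1 and pandas 2.3.3, and plots matplotlib 3.10.9.

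Members with an adjusted p under 0.05 in any comparison are given in full, otherwise the 3 smallest p, and others by their range or sign. A score for another tissue is the mean over its markers of log2 intensity minus the median over hearts. The members and gene lists were chosen with earlier results of these data known. Replicate numbers follow the order of deposition and pair no animals, and the animals of a cage are tied only by it. The fits were checked on simulated data. Alternatives were the filter, background offset, probes per gene, trend, array weights, array sets, cage, other-tissue scores and left-out animals. Those based on Adipoq and the single animals left out of the averaged and interaction fits were added after the data were seen.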

Additional observations from a re-analysis of the deposited data

Results flagged for a closer look

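In 26 of 108 combinations of a gene and a diet group (26 tested members and Adipoq in 4 groups), 1 heart stood apart from the 9 others by more than Dixon's 95% limit on the log2 scale. For independent values chance alone would give about 1 in 20. These flags were not independent, since animals 201, 183, 101 and 133 gave 9, 5, 4 and 4 of them. The share over all tested probes was not computed. Below, the gap to the next heart is given as a share of the group's range.

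Animal 201 (LF_HF, liver score 3.47) was the highest of its group in Fads1 (0.795), Hmgcs1 (0.666), Fdps (0.642), Sqle (0.624), Nsdhl (0.611), Msmo1 (0.609), Cyp51 (0.58), Elovl5 (0.535) and Ebp (0.52). Animal 101 (LF_LF, liver score 3.8) was the highest in Fdps (0.657), Fads1 (0.652), Ebp (0.578) and Cyp51 (0.525). By this rule, sterol and polyunsaturated fatty acid genes were the ones that stood apart in the hearts with the highest liver scores. Whether liver tissue carried them was not tested.

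Animal 183 (HF_HF, Adipoq 3474.8) was the highest of its group in Acaca (0.814, at 525.6 against 209.0 in the next heart), Adipoq (0.631), Slc25a1 (0.575), Scd1 (0.553) and Hmgcs1 (0.469). Animal 133 (LF_LF, Adipoq 2551.5) was the highest in Insig1 (0.595), Thrsp (0.483), Acly (0.472) and Scd2 (0.471). The part of adipose tissue in these values was not tested.

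Of the remaining hearts, animal 182 (HF_HF, liver score 2.22) was the highest in Cyp51 (0.527), animal 122 (HF_HF) the highest in Dhcr7 (0.49), animal 14 (LF_LF) the lowest in Dhcr7 (0.501) and animal 210 (LF_LF) the lowest in Srebf2 (0.551).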

How the results depend on the processing

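The number of members that passed in the averaged post-weaning effect, 3, was 0 without the filter on dim probes and 0 within array set 2, from 1 to 4 when single animals and from 0 to 4 when single cages were left out. In offspring of LF-fed dams, where 0 had passed, it was 2 with the adipocyte score as a covariate, 1 with the atrial score, 1 without the Adipoq-rich hearts, 1 with log2 Adipoq as a covariate and from 0 to 1 when single animals were left out. In offspring of HF-fed dams, where 0 had passed, it was 1 with the adipocyte score, 1 with log2 Adipoq and from 0 to 1 when single animals were left out. For both maternal comparisons, the averaged maternal effect and the interaction it was 0 under every alternative run, and the comparison within cages was fitted in 1 way. Among all tested probes, 163 passed as higher and 181 as lower in offspring of LF-fed dams. These counts were 290 and 408 with the atrial score, so more probes passed there in general. They were 107 and 174 with the adipocyte score, 43 and 69 without the Adipoq-rich hearts and 80 and 145 with log2 Adipoq. For HF-fed dams 61 and 48 became 68 and 49 with the adipocyte score and 67 and 48 with log2 Adipoq. The sign of Scd1 in the averaged post-weaning effect, -0.81, was reversed within array set 2 (0.58), without the Adipoq-rich hearts (0.49), with log2 Adipoq as a covariate (0.061) and without both kinds of doubtful heart (0.28). Without the filter Acaca had an adjusted p of 0.0514, Pmvk 0.0692 and Insig1 0.084, with the same log2 fold changes and more probes tested. Among all probes 321 passed as higher and 303 as lower without the filter, against 446 and 501 with it. Within array set 2 these counts were 2 and 2. With cage as a random block Acaca (0.0276) and Pmvk (0.0364) passed and Insig1 did not (adjusted p = 0.052). The cause of the other changes was not tested. By replicate number, no paired analysis was possible because the numbers follow the order of deposition and pair no animals. Animals of both diets shared 5 cages, and the comparison within cages blocked on it. Dim members, among them Fasn, cannot be judged from these arrays. Small diet differences in Sqle, Mvd or Dhcr7, which lay near the array median, could be missed.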
